A study of Mus musculus with 12 samples.

Results

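The B cell and antibody genes described here were 9 of the 55679 genes in the deposited gene table, taken by name. They were Ighm, Ighd, Igha and Igkc, which encode constant regions of antibody chains, Jchain, and the B cell genes Cd79a, Cd79b, Ms4a1 and Pou2af1, and all 9 were in the table. They were read in 12 RNA-seq libraries, 1 of lung and 1 of heart from each of 6 male 129S6/SvEvTac mice aged 9 to 13 weeks per the study's methods. In 3 mice Adam19, which encodes a membrane-anchored metalloprotease, was wild type (WT). The other 3 were homozygous for Adam19-tdTomato, an allele in which a tdTomato construct replaces exons 6 and 7 in all tissues, and are called knockout (KO). The sources name no treatment of these mice. Whole organs were frozen after the animals were bled through the vena cava and no perfusion is named, so a library holds RNA of any blood and lymphoid tissue that the organ carried. WT and KO mice have different prefixes in their identifiers, and the prefix and the genotype cannot be told apart.

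A B cell displays antibody on its surface as IgM and IgD, together with Cd79a and Cd79b, the signalling pair of the B cell receptor. Once it becomes a plasma cell it makes the secreted form of the antibody in bulk, and the J chain links IgM or IgA units into larger complexes that epithelial cells can carry to a mucosal surface such as the airway. Ms4a1 encodes CD20, a surface protein of mature B cells, and Pou2af1 encodes a coactivator that works with octamer-binding factors at antibody promoters. Igkc is the constant region of the kappa light chain, the commoner of the light chains in mice.

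The heavy chain genes make both forms from 1 locus, by a choice at the 3′ end of the transcript. In the GRCm39 assembly the reverse strand holds Ighm at chr12:113382178-113386350, Ighd at chr12:113370224-113379944 and Igha at chr12:113218450-113223856. The ends of the 2 forms are shown for Ighm and Igha because the secreted form is compared between genotypes below. In the secreted tails the first capitals mark the GT at which the membrane transcript splices instead, and in all 4 sequences the last capitals mark the stop codon. The Ighm membrane end was joined from 2 exons.
Ighm secreted tail, chr12:113384487-113384548: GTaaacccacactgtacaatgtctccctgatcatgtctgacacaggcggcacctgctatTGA
Igha secreted tail, chr12:113222388-113222449: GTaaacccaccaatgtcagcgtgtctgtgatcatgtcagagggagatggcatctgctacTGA
Ighm membrane end, within chr12:113382446-113382688: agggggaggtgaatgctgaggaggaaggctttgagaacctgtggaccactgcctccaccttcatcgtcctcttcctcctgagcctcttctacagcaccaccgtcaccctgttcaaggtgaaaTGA
Igha membrane end, chr12:113219821-113220017: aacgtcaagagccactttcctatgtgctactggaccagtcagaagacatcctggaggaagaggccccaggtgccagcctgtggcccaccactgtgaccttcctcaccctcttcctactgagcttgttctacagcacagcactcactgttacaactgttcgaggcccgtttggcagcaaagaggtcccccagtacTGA
The secreted tails of Ighm and Igha are both 62 bases long and identical at 43 of them. The other members lie elsewhere. Igkc is at chr6:70703419-70703950, Jchain at chr5:88667668-88675750, Cd79a at chr7:24596740-24601622, Cd79b at chr11:106202167-106205588, Ms4a1 at chr19:11227039-11243605 and Pou2af1 at chr9:51124984-51151380. The assembly is of another strain than these mice, so antibody alleles that differ between strains may be undercounted to an extent that was not tested.

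The libraries held 17674788 to 28043361 estimated counts in lung and 18392292 to 35862932 in heart. Gene values below are the deposited ones, log2 of estimated counts after scaling between libraries, unless a sentence says otherwise. Adam19 was between 9.12 and 10.27 in the 6 WT libraries and between 3.21 and 6.67 in the 6 KO libraries. Lung WT 3 stood apart from the other lungs in Rag1, the recombinase gene of lymphocyte precursors, at 5.69 against 0 in the other 5 lungs. The small cytoplasmic RNA Rn7s1 took between 2.1% and 34.0% of the summed level of a lung library, which bears on any scaling by library total.

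All 9 genes were higher in lung than in heart, with every lung library above every heart library. Tested with limma over 17666 genes and 12 libraries, 9 of 9 passed the thresholds of an adjusted p under 0.05, a fold of at least 1.5 and a group mean of at least 6, where 30.1% of all genes tested were called higher in lung. The complete separation of lungs from hearts held for 34.8% of all genes tested. The largest differences were those of Jchain, 5.81 on the log2 scale (SE 0.31, limma adjusted p 2.38e-09), and Igha, 5.77 (SE 0.34, adjusted p 6.39e-09). The smallest was that of Ighm at 3.01 (SE 0.16, adjusted p 1.92e-09), a fold of 8.03, and the hearts held 12.5% of the lung level of Ighm but 1.78% of that of Jchain. Ms4a1 and Igkc differed by 5.13 (SE 0.34, adjusted p 1.86e-08) and 5.07 (SE 0.21, adjusted p 2.00e-10). Ighd, Cd79b, Pou2af1 and Cd79a lay between 4.31 and 4.51. In at least 1 heart, 7 of the 9 genes (all but Ighm and Ighd) were below 3.46, which is 10 counts after scaling. Of these, Igha, Cd79a and Pou2af1 reached that value in fewer than 3 hearts and met the minimum of 3 libraries only with the lungs. In whole organs fewer cells of a type and less RNA per cell cannot be told apart, here and in every comparison that follows.

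Per kilobase of transcript, a scale on which genes can be compared, Igkc stood first in lung and Pou2af1 last. In WT lungs the mean level was 1330 ± 95.1 normalised counts per kilobase for Igkc (SD, n = 3), 793 ± 207 for Ighm and 440 ± 105 for Igha, and the library ranges of these 3 genes did not meet. Below them came Cd79b at 311 ± 125, Jchain at 274 ± 143, Ighd at 184 ± 101, Ms4a1 at 147 ± 71.3, Cd79a at 91.9 ± 45.4 and Pou2af1 at 49.9 ± 19.5, and from Igha downward each gene's range overlapped that of the next. The KO lungs kept the same first 3 genes, with Igkc at 2220 ± 418, Ighm at 1608 ± 97.4 and Igha at 761 ± 151. In KO lungs Jchain followed at 483 ± 126, its range overlapping that of Ighd at 359 ± 75.7, which in turn overlapped that of Cd79b at 355 ± 30.4. In heart Ighm led in both genotypes, at 120 ± 32.3 in WT and 165 ± 29.4 in KO, with no library of Igkc reaching its range. Jchain was last in WT hearts at 2.03 ± 0.622 and stood at 13.2 ± 5.6 in KO hearts, between Cd79b and Ighd with ranges that overlapped both.

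**Figure D1:**
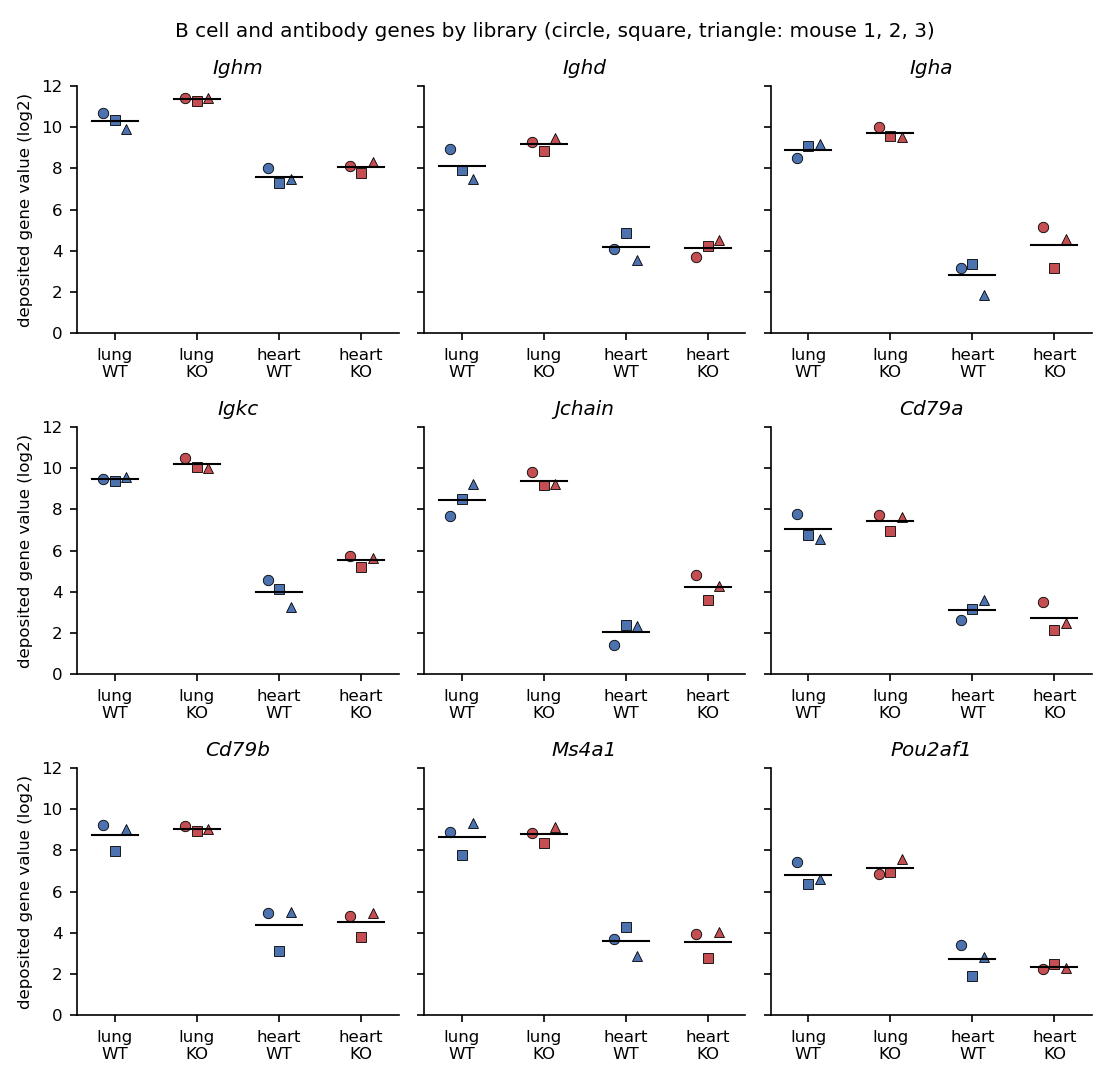
Deposited gene value (log2) of each of the 9 genes in every library, by tissue and genotype; circles, squares and triangles are mice 1, 2 and 3 of a genotype and bars are group means. Every lung lies above every heart, and the 3 KO lungs lie above the 3 WT lungs for Ighm, Igha and Igkc.

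The comparison of KO with WT within a tissue asked which genes differed between genotypes, here not separable from the identifier prefix. In lung the antibody and J chain genes among the members had higher means in KO and none of the 9 genes passed the test. limma called 0 of 9 members over 16551 genes, where 0.0665% of all genes were called. Without adjustment, limma gave p under 0.05 with a higher KO mean for 5 of 9 members, the 5 antibody and J chain genes, where 3.15% of all genes were of that kind. The 3 KO libraries lay above the 3 WT libraries for 3 of 9 members, against 6.41% of all genes tested. limma-voom on estimated counts called 1 of 9, Ighm, and 12 of all 16551 genes. That fit also moved the median difference of all genes to 0.29. Relative to that median Ighm differed by 1.05, as with the deposited values. The number of members with an unadjusted limma p under 0.05 was 3 without KO 3, and 3 in 1 model over all 12 libraries.

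Ighm, the heavy chain of IgM, was at 10.67, 10.36 and 9.91 in WT lungs and at 11.43, 11.27 and 11.41 in KO lungs. Every KO value was above every WT value, and the KO values lay within 0.2 of each other. The difference was 1.06 (SE 0.20, 95% interval 0.60 to 1.52), a fold of 2.08, with an unadjusted p of 0.000606 and an adjusted p of 0.386 by limma. Ighd, the heavy chain of IgD, was at 8.96, 7.92 and 7.50 in WT and at 9.27, 8.87 and 9.48 in KO. WT 1 reached above KO 2, so the groups overlapped, and the difference of 1.08 (SE 0.35) had an adjusted p of 0.806 in limma.

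Igha, the heavy chain of IgA, was at 8.48, 9.08 and 9.16 in WT lungs and at 10.02, 9.59 and 9.51 in KO lungs, with no overlap and KO 1 highest. Its difference was 0.80 (SE 0.23, 95% interval 0.28 to 1.32, limma adjusted p 0.806). Igkc was at 9.49, 9.35 and 9.56 in WT and at 10.49, 10.08 and 10.01 in KO, again with no overlap. The difference was 0.72 (SE 0.17, 95% interval 0.33 to 1.12), a fold of 1.65, with a limma adjusted p of 0.783. Jchain was at 7.66, 8.52 and 9.25 in WT and at 9.81, 9.16 and 9.22 in KO. Here WT 3 lay inside the KO range, and the difference of 0.92 (SE 0.37) had a limma adjusted p of 0.809.

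The 4 B cell genes showed smaller differences and overlapping groups. Cd79a was at 7.79, 6.76 and 6.55 in WT lungs and at 7.72, 6.96 and 7.61 in KO lungs, a difference of 0.40 (SE 0.35). Cd79b was at 9.25, 7.96 and 9.06 in WT and at 9.17, 8.92 and 9.03 in KO, a difference of 0.28 (SE 0.31), and WT 2 was the lowest. Ms4a1 was at 8.90, 7.77 and 9.34 in WT and at 8.85, 8.35 and 9.13 in KO. Its difference was 0.10 (SE 0.38, 95% interval −0.77 to 0.98), and the highest and the lowest lungs were both WT. Pou2af1 was at 7.44, 6.34 and 6.60 in WT and at 6.83, 6.95 and 7.59 in KO, a difference of 0.33 (SE 0.33). The limma adjusted p of these 4 genes was between 0.856 and 0.969, and the intervals of Cd79a, Cd79b and Pou2af1 all included both 0 and 0.9. The signs for Cd79b and Ms4a1 turned without lung WT 2, to −0.12 and −0.35, and that for Ms4a1 also turned without KO 3, to −0.074. Over 16 settings of the fit the highest differences were 0.77 for Cd79a, 0.65 for Pou2af1, 0.56 for Cd79b and 0.44 for Ms4a1. In 1 setting Cd79a had an unadjusted p under 0.05. The lowest differences of the 5 antibody and J chain genes lay between 0.52 (Jchain) and 0.85 (Ighm), so the ranges of both sets overlapped.

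**Figure D2:**
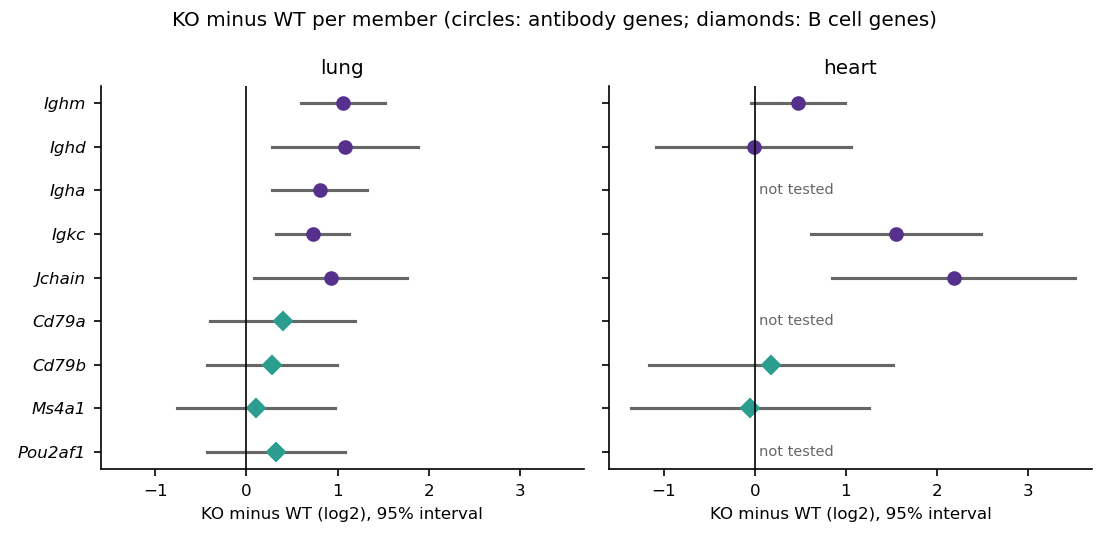
KO minus WT difference (log2) of each gene in lung and heart with its 95% limma interval; circles are antibody and J chain genes, diamonds are B cell genes, and 3 genes were not tested in heart. In lung the 5 antibody and J chain intervals lie above 0 before adjustment and the 4 B cell intervals span it.

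Among the WT lungs the antibody genes themselves did not share 1 order. WT 1 had the highest WT level of Ighm and Ighd, as it had of Cd79a, Cd79b and Pou2af1, and the lowest of Igha and Jchain. WT 3 had the highest WT level of Igha, Jchain, Igkc and Ms4a1 and the lowest of Ighm, Ighd and Cd79a. The mean of the 5 antibody and J chain genes was 9.05, 9.04 and 9.07 in WT lungs, where it averages these opposite orders, and 10.20, 9.79 and 9.93 in KO lungs. The mean of the 4 B cell genes was 8.35, 7.21 and 7.89 in WT and 8.14, 7.80 and 8.34 in KO. The antibody mean was thus higher in each KO lung than in any WT lung, while the B cell means overlapped. The gap between both means was 0.71, 1.83 and 1.18 in WT lungs and 2.06, 2.0 and 1.59 in KO lungs, and WT 2 lay above KO 3.

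In heart, where these transcripts were scarce, 6 of the 9 genes had enough counts to be tested and limma and limma-voom each called 0 of the 6, with 0.085% of 15303 genes called. Jchain reached the minimum for a test through its 3 KO hearts alone, so a difference was built into its selection and counts that include it are a description. Igkc and Jchain had unadjusted limma p-values under 0.05 with a higher KO mean, as had 4.76% of all genes, and every KO heart above every WT heart, as had 7.82% of all genes. Nothing is read from these 2 counts for the members. Igkc was at 4.57, 4.12 and 3.26 in WT hearts and at 5.73, 5.21 and 5.65 in KO hearts. Its difference was 1.55 (SE 0.41, 95% interval 0.62 to 2.48, limma adjusted p 0.481), a fold of 2.93.

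Jchain was at 1.39, 2.38 and 2.34 in WT hearts and at 4.80, 3.57 and 4.28 in KO hearts. The difference was 2.18 (SE 0.59, limma adjusted p 0.481), under the selection just described. Igha, which was not tested, was at 3.16, 3.36 and 1.87 in WT and at 5.13, 3.17 and 4.54 in KO. KO 1 and KO 3 were above all WT hearts and KO 2 was not. Ighm was at 8.01, 7.31 and 7.47 in WT and at 8.11, 7.79 and 8.32 in KO, a difference of 0.48 (SE 0.23, limma adjusted p 0.693) with overlapping groups.

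The other members gave no clear difference in heart. Ighd differed by −0.01 (SE 0.47), Cd79b by 0.18 (SE 0.59) and Ms4a1 by −0.05 (SE 0.58), with 95% limma intervals reaching at least 1.06 on the upper side. Cd79a lay between 2.15 and 3.6 and Pou2af1 between 1.91 and 3.42 over the 6 hearts, below the minimum for a test. Heart WT 3, KO 1 and KO 2 also carried more transcript of lung epithelium than the others. The summed level of the 5 epithelial markers was 9.82, 10.70 and 9.52 there and 6.38 to 7.52 in the other 3 hearts, against 18.83 to 19.12 in lung. KO 1, with the highest epithelial sum, also had the highest Igkc (5.73), Jchain (4.80) and Igha (5.13) of the 6 hearts. KO 3, with 6.57, had Igkc at 5.65, Jchain at 4.28 and Igha at 4.54, KO 2, with 9.52, had the lowest KO level of all 3 genes, and WT 3, with 9.82, had the lowest Igkc and Igha of the hearts. Red blood cell markers summed to 14.22, 13.54 and 15.80 in WT hearts and to 15.45, 12.81 and 14.46 in KO hearts, and the part of neither marker list was tested.

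A direct test of whether the KO minus WT difference varied between tissues called 0 of the 9 genes with limma and with limma-voom. Of 17666 genes 0.00566% were called, and limma gave 0 members an unadjusted p under 0.05. The widest estimates were those of Jchain, −1.26 (SE 0.62, 95% interval −2.61 to 0.09, limma adjusted p 0.645), and Ighd, 1.09 (SE 0.59, limma adjusted p 0.660). Igkc differed by −0.82 (SE 0.42) and Ighm by 0.58 (SE 0.31). limma with the mouse as a replicate block gave unadjusted p-values of 0.0123 for Jchain and 0.0359 for Ighm and called neither.

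The secreted and membrane forms of Ighm were compared next, and the difference in the secreted share between genotypes did not pass its test in either tissue. The secreted transcript had 153, 395 and 225 estimated counts in WT lungs and 1327, 1666 and 576 in KO lungs. The membrane transcript had 1242, 685 and 959 in WT and 1796, 2032 and 1659 in KO, before scaling between libraries. After scaling the secreted transcript was at 7.53, 8.88 and 7.53 in WT and at 10.15, 10.07 and 9.46 in KO on the log2 scale, each KO lung above each WT lung. The membrane transcript, at 10.54, 9.67 and 9.62 in WT and at 10.59, 10.36 and 10.98 in KO, overlapped.

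The secreted form made up 10.98%, 36.6% and 19.0% of the Ighm counts in WT lungs and 42.5%, 45.1% and 25.8% in KO lungs. WT 2 lay above KO 3, so the groups overlapped, and the largest 95% Wilson interval of a lung, 33.8% to 39.5% in WT 2, was narrow beside the spread between mice. These intervals treat every estimated count as a read of known form. Reads in the exons that both forms share do not show the form. The intervals leave out the error of dividing such reads and are too narrow by an amount that was not tested. The means were 22.2% ± 13.1 in WT and 37.8% ± 10.5 in KO (SD, n = 3), and the difference of 15.6 percentage points had p = 0.2 in an exact two-sided permutation test, which cannot go below 0.1 with 3 mice against 3. In hearts the share was 15.7%, 17.1% and 23.2% in WT and 33.5%, 15.6% and 29.3% in KO (exact permutation p = 0.4), on 92.2 to 339 counts a heart. Within a mouse the lung share exceeded the heart share by 7.59 points on average, higher in 3 of 6 mice, with p = 0.281 in the exact paired permutation test.

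**Figure D3:**
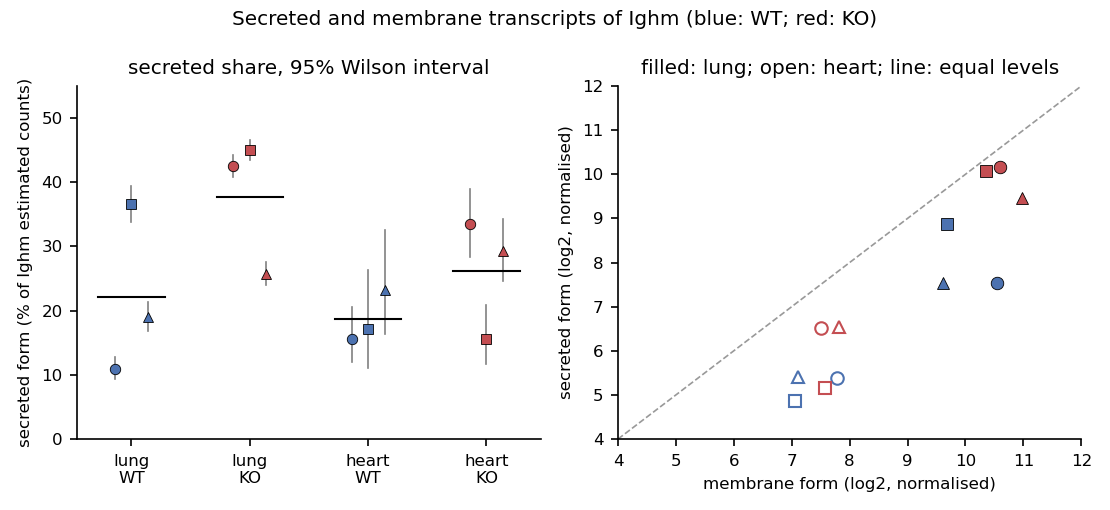
Left, secreted share of Ighm estimated counts (percent) in each library with 95% Wilson intervals and group means; right, scaled level (log2) of the secreted against the membrane form, with lungs filled, hearts open and a line of equal levels. All libraries lie below that line, and 2 KO lungs lie nearest to it.

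Igha and Ighd sat at opposite ends of this scale. The secreted form made up between 96.0% and 100% of Igha counts in the 6 lungs, with means of 97.6% ± 2.13 in WT and 97.8% ± 0.0708 in KO (exact permutation p = 1). By counts Ighd was mostly of the membrane form. Its secreted share was 0%, 1.82% and 0% in WT lungs and 4.17%, 9.95% and 1.51% in KO lungs (exact permutation p = 0.2), so that WT 2 lay above KO 3. All these shares are of counts, without a correction for transcript length. The annotated secreted and membrane transcripts have 802 and 1806 bases for Ighd, 1100 and 2540 for Igha and 1493 and 1698 for Ighm. A share per kilobase would give the shorter secreted form more weight. The 95% Wilson intervals of the WT lungs with 0% reached 0.843% and 1.58%, again without the error of dividing shared reads. The secreted share of Ighd in KO lungs rested on 30.8, 68.8 and 9.4 estimated counts. Both genes had under 10 estimated counts in some hearts, before scaling, so their shares were not compared there.

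The variable segments, which form the part of an antibody that binds its target, were counted over all 346 segments of the table. Their summed level was 1189, 1364 and 1386 scaled counts in WT lungs and 2362, 1713 and 2445 in KO lungs. Each KO lung was above each WT lung, the log2 difference was 0.71, and the exact two-sided permutation p was 0.1, the smallest this design allows. In WT lungs 166, 166 and 173 segments were above 0, and in KO lungs 194, 191 and 181, without a correction for depth. Hearts held 15 to 55 segments above 0 and summed levels of 24.6 to 87.9. Of the 46 segments whose mean log2 value over the 6 lungs reached 3.46, 42 had a higher KO mean. Their median log2 difference was 0.72, against 0.01 over all genes tested. For 12 (26.1%) all KO lungs lay above all WT lungs, against 6.41% of all genes tested. Those genes were taken by another filter, a value of at least 3.46 in 3 libraries. limma tested the 59 segments that passed the filter in lung and called 0 of them, where 0.0665% of all genes were called. It gave an unadjusted p under 0.05 to 12 that were higher and 1 that was lower in KO. Of all genes tested, 3.15% had such a p and a higher KO mean. The 3 KO lungs alone can admit a segment to these 59. In a WT lung 35 to 42 segments reached 3.46, and in a KO lung 60 to 78. A difference can thus be built into this selection, and its counts are a description. Closely similar segments share reads, so single segments are uncertain and are not separate observations.

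**Figure D4:**
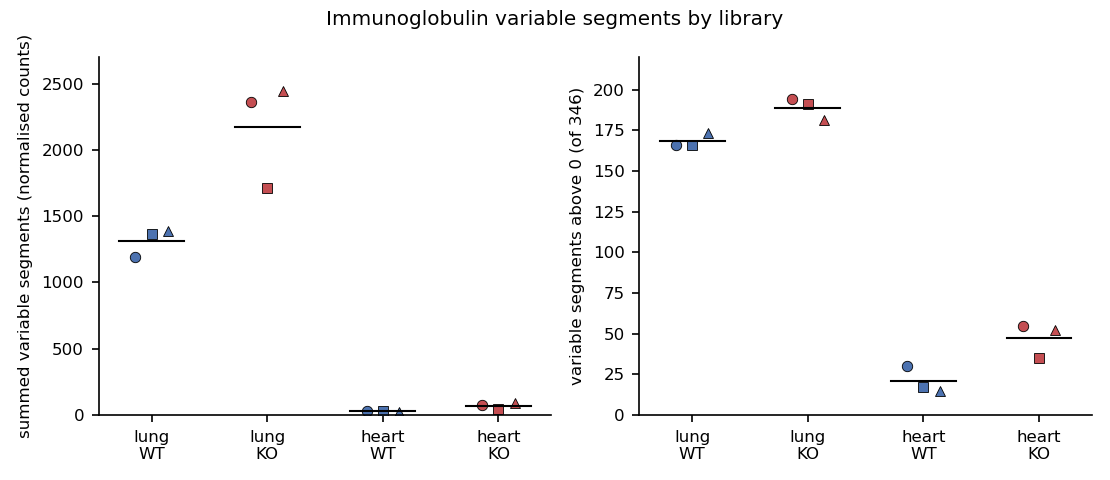
Left, summed scaled counts of all 346 variable segments per library; right, the number of segments above 0. Bars are group means and symbols mice; KO lungs lie between 1713 and 2445 scaled counts and WT lungs between 1189 and 1386.

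By level the leading segments in lung were Igkv1-110, Igkv5-43 and Iglv1. Igkv1-110 was at 5.72, 5.18 and 6.40 in WT lungs and at 7.11, 5.09 and 6.11 in KO lungs, and Igkv5-43 at 4.73, 5.92 and 4.93 against 6.05, 5.70 and 6.37. Both overlapped between genotypes. Iglv1 was at 4.69, 4.69 and 5.58 in WT and at 6.23, 6.24 and 6.06 in KO, without overlap. The octamer ATGCAAAT, the site of the factors that the product of Pou2af1 assists, was searched on both strands in the 250 bases before each annotated start in GRCm39. It was present at 79.6% of 113 Ighv, 72% of 100 Igkv and all 3 Iglv genes, and at 1.52% of 21770 protein-coding genes. Of the leading segments Igkv5-43 and Iglv1 hold it, at 76 and 65 bases before the start, and Igkv1-110 does not hold these letters in that window. None of the 9 members holds it there either. Ighm, Ighd, Igha and Igkc are annotated as constant region genes, so their window lies before the constant region and not before a variable segment. It says nothing of the promoter of their transcripts. The bases around the octamer (capitals) are shown on the strand of each gene, reading as its reverse complement, because this is the sequence that most antibody variable genes share.
Igkv5-43, chr6:69800956-69801043: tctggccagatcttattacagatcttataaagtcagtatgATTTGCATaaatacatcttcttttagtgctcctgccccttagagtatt
Iglv1, chr16:18904268-18904355: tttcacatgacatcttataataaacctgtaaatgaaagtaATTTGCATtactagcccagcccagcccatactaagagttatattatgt

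Other antibody constant genes gave a mixed picture in lung, with 0 of the 7 tested called by limma and 1, Iglc2, at an unadjusted p under 0.05. Iglc2, a lambda light chain, was at 7.10, 6.47 and 6.49 in WT and at 8.29, 7.08 and 7.78 in KO, a difference of 1.03 (SE 0.33, limma adjusted p 0.806). Iglc1 and Iglc3 differed by 0.39 and 0.11, and the lambda genes are near-identical to one another. Lambda transcripts per kilobase made up 33.5%, 22.3% and 25.2% of kappa plus lambda in WT lungs and 24.6%, 20.8% and 28.9% in KO lungs, so the groups overlapped. Ighg2c, an IgG heavy chain, was at 7.54 in lung WT 3 and between 3.23 and 4.83 in the other lungs. Ighg2c differed by −0.83 (SE 0.91) and Ighg3 by −0.31 (SE 0.48), both lower in KO. Ighg1 and Ighg2b differed by 0.46 (SE 0.36) and 0.69 (SE 0.46).

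Genes of the wider B cell programme were taken from lists chosen by hand. Neither limma nor limma-voom called a gene of any of them in lung or in heart. Of 19 B cell surface and signalling genes 0 were called in lung, 2 (Blnk and Vpreb3) had an unadjusted p under 0.05, 17 had a higher KO mean, and the median difference was 0.31 against 0.01 over all genes tested. Without lung WT 2, 57.9% of them had a higher KO mean. Bank1, an adaptor of B cell receptor signalling, differed by 0.51, H2-Ob, a chain of the MHC class II modulator, by 0.22, and Cd37, a tetraspanin, by 0.43. Of 7 B cell transcription factors 0 were called and 1, Pou2f2, had an unadjusted p under 0.05, with a median of 0.25, and the leading ones Ebf1, Irf8 and Bach2 differed by 0.25, 0.06 and −0.17. Of 8 plasma cell genes tested 0 were called, with a median of 0.07. Xbp1, which drives the secretory programme, was the 1 gene of the list with an unadjusted p under 0.05 and differed by −0.37 (limma adjusted p 0.806). Sdc1 differed by −0.25 and Txndc5 by −0.05. Xbp1, Sdc1 and Txndc5 are also made outside plasma cells. Of the list, 4 genes had a higher and 4 a lower KO mean. Mzb1, Prdm1, Derl3 and Irf4 differed by 0.40, 0.25, 0.20 and 0.20, and Fkbp11 by −0.05.

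Of the genes that carry or bind antibody, 0 of 7 tested were called in lung and 1, Fcgr1, had an unadjusted p under 0.05, with a median of −0.21. Fcgrt, the neonatal Fc receptor that protects IgG, differed by 0.20, Fcgr3 by −0.32 and Fcer1g, the shared signalling chain, by −0.21. Among 7 attractant and survival factor genes 0 were called and 0 had an unadjusted p under 0.05, with a median of 0.17. Cxcl12, Ccl21a and Tnfsf13b, the last of which encodes the B cell survival factor BAFF, differed by 0.17, 0.28 and −0.26. Of the B cell precursor genes 1 was tested, Il7r, which differed by 0.17, and Dntt was highest in lung WT 3 at 5.09.

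Markers of other cells were read in the same lungs. Of 12 T cell markers 0 were called, 0 had an unadjusted p under 0.05 and the median difference was 0.00, and their summed level was 10.58 to 11.24 in WT and 10.76 to 10.995 in KO. The median differences of NK cell, plasmacytoid dendritic cell, neutrophil and macrophage markers were −0.23, −0.15, 0.36 and −0.09, with 0 called in each list and 1 gene, Retnlg of neutrophils, at an unadjusted p under 0.05. The summed neutrophil level was 10.51 to 10.73 in WT lungs and 10.70, 10.81 and 11.58 in KO lungs. Leading markers of these lists were Trbc2, Cd247 and Lck, then Gzma, Prf1 and Ncr1, then Cox6a2, Siglech and Ccr9, then Csf3r, S100a9 and S100a8, and then Lyz2, Mrc1 and Adgre1. Cox6a2 is also a muscle gene, and its list summed to 13.98 to 14.60 in heart against 8.57 to 8.94 in lung. Glycam1, a defining gene of lymph node vessels, was at 0 in all 12 libraries and Madcam1 in all but 1.

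Red blood cell markers varied most between lungs. The summed level of Hbb-bs, Hba-a2, Hba-a1 and 2 further genes was 14.91, 14.97 and 16.66 in WT lungs and 17.16, 12.85 and 13.45 in KO lungs, with a median difference of −1.08, 0 of 5 called and 0 at an unadjusted p under 0.05. KO 1, the lung with the most red cell transcript, had the highest Igha, Igkc and Jchain. KO 2 and KO 3 had the least red cell transcript and were above all WT lungs in Igha and Igkc. Adipocyte markers (Cfd, Cidec, Adipoq) summed to between 9.997 and 12.04 with no separation of genotypes, and lymph node stroma and thymocyte markers had medians of 0.17 and 0.04 over 2 and 1 genes tested. Lung epithelium (Scgb1a1, Sftpc, Sftpa1) and heart muscle (Myh6, Actc1, Ryr2) markers had medians of −0.18 and −0.50 in lung, with 0 of 5 called in each, and 2 and 1 of the 5 had an unadjusted p under 0.05. The part of these cells in the antibody differences was not tested.

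**Figure D5:**
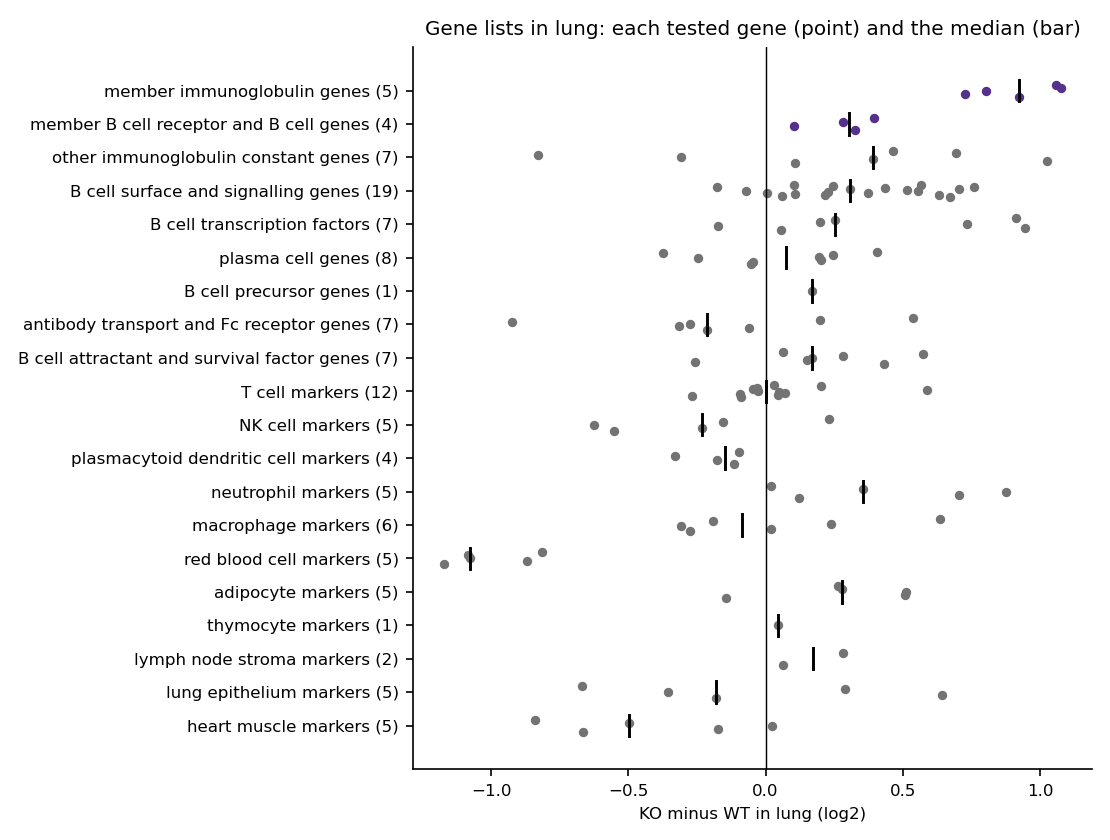
KO minus WT difference in lung (log2) of every tested gene of each list, with the number tested in parentheses and the median as a bar. The 5 antibody and J chain genes lie between 0.72 and 1.08 and the median of the T cell markers lies at 0.00.

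The genes whose levels went most closely with the mean of the 9 members, after removing the mean of each tissue and genotype, were sought among 12182 genes. The 10 with the highest Pearson correlation over 12 libraries were Septin10 (r = 0.90), Dram1 (0.89), Gimap9, Ikzf1, Zfp984, Stx11, Ppm1m, Ccdc166, Igfbp7 and Eef1a1-ps1, the last at 0.85. Ikzf1 encodes a lymphoid transcription factor and Gimap9 a GTPase of lymphocytes. Whether the 10 hold more lymphoid genes than other genes do, or exceed chance in a search of 12182 genes, was not tested. Members among the genes compared correlated with their own mean at 0.19 (Jchain) and 0.26 (Ighd) at the low end. Ms4a1, at 0.80, was the highest of them. Each point shares its library with the mean of the members, and the values are a description of these 12 libraries.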

How the data were processed

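Strand-specific libraries of total RNA from whole lung and heart were sequenced. The authors quantified reads with Salmon 1.10.0 against GENCODE vM33 (mm39) and deposited gene and transcript tables on a log2 scale. A transcript value was log2 of 1 plus the estimated count. For genes of 1 transcript the gene value added a constant for each library. It was 0.79 and 0.80 in heart WT 2 and WT 3 and between −0.11 and −0.067 in the KO hearts. The added 1 is scaled with the count, so fold changes of low genes can be understated or overstated. Members of several transcripts departed from their summed counts plus that constant. In heart the departure reached 1.00 for Ighd, 0.76 for Pou2af1 and −0.61 for Jchain, and in lung it lay between −0.18 and 0.30. Genes with a value of at least 3.46 (10 scaled counts) in 3 libraries were tested with limma 3.58.1 (R 4.3.3, eBayes with trend) on the deposited log2 values. Calls needed an adjusted p (Benjamini-Hochberg, all genes tested) under 0.05, a fold of at least 1.5 and a group mean of at least 6, as in the study. Single shares and sums were tested by exact two-sided permutation (scipy 1.17.1).

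Members and lists were chosen with earlier results of these data known. The genes named were the 9 members, list genes called between genotypes in either tissue (there were 0), the 3 genes of each list and the 3 variable segments with the highest level, the 10 genes most correlated with the members, and Adam19. Others (Ighg1, Ighg2b, Ighg2c, Ighg3, Mzb1, Prdm1, Derl3, Irf4, Fkbp11, Glycam1, Rn7s1, Blnk, Vpreb3, Pou2f2, Fcgr1, Retnlg) were chosen after their values were seen. Positions and sequences came from GENCODE vM39 on the same assembly, matched by Ensembl identifier without version. Lung and heart were paired by mouse identifier, and their deviations from group means correlated between −0.068 and 0.136 over 17666 genes. Alternatives were limma-voom, other scalings and filters, a pseudocount of 5, summed transcripts, no variance trend, 1 model over 12 libraries, a mouse block and leaving out each library. The fits were tested on simulated data.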

Additional observations from a re-analysis of the deposited data

How the results depend on the processing

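Differences between lung and heart kept direction and call in all 182 gene-level alternatives. A minimum of 10 scaled counts in every library left 2 of the 9 members tested there, and both were called (Ighm and Ighd). Before scaling, Ighd had 7.5 and 6.1 estimated counts in heart WT 2 and WT 3. In KO versus WT lungs limma-voom and scaling by total estimated counts each called 1 member, Ighm (1.34 in both, adjusted p 0.0448 and 0.0437). Both also moved the median of all genes to 0.29, and relative to it Ighm differed by 1.05, as with the deposited values. Over all genes these fits moved the share of tissue calls that were higher in lung from 58.7% to 76.0% and 76.9%, and the median ratio moved it to 50.5%. The number of members with an unadjusted p under 0.05 in lung was 5, it was 3 with 1 model over all 12 libraries, and it lay between 3 (without KO 3) and 5 as single libraries were left out. In heart that number was 2. It was 1 with total scaling and 0 with 10 scaled counts in every library (Igkc and Jchain then not tested). On leaving out libraries it lay between 2 and 4, the 4 without KO 2 adding Ighm and Igha. For the difference between tissues it was 0, it was 1 with limma-voom and the median ratio, 2 with total scaling and 2 with the mouse as a replicate block, and 0 to 3 on leaving out libraries, the 3 without lung WT 1. That block changed no call of a member. The share of B cell surface genes with a higher KO mean, 89.5%, ran from 57.9% (without lung WT 2) to 94.7% on leaving out lung libraries. The secreted share of Igha in lung, 0.22 points higher in KO, ran from −0.54 to 1.44 points on leaving out mice, turning negative without WT 1 (−0.54) and WT 2 (−0.24). The summed variable segments differed by 0.62 to 0.88 on leaving out libraries and by 1.0 with total scaling, alternatives chosen after seeing the data.

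Sign changes without a call were the following. In lung Cd79b went to −0.12 and Ms4a1 to −0.35 without WT 2, and Ms4a1 to −0.074 without KO 3, the highest values on leaving out a library being 0.53 and 0.44. In heart Ighd went to 0.043 (limma-voom), 0.063 (total), 3.67e-05 (median ratio), 0.24 (summed transcripts), 0.35 (without WT 2) and 0.22 (without KO 1), Cd79b to −0.46 (without WT 2) and −0.035 (without KO 3), and Ms4a1 to 0.054 (total), 0.28 (without WT 2) and 0.35 (without KO 2). The other ends of their ranges on leaving out a heart were −0.33 for Ighd, 0.54 for Cd79b and −0.43 for Ms4a1. For the difference between tissues Cd79b went to −0.29, −0.21, −0.22 and −0.26 without lung WT 2, heart WT 1, heart WT 3 and heart KO 2, and Ms4a1 to −0.29, −0.021, −0.17 and −0.25 without lung WT 2, lung KO 3, heart WT 2 and heart KO 2, the highest values being 0.74 and 0.53. The cause was not tested. The number of all genes called in lung was 11 and fell to 1 with 10 scaled counts in every library. In heart it was 13 and ran from 7 with that filter to 21 without KO 2. For the difference between tissues 1 gene was called and 0 to 5 on other settings. Heart values of all members but Ighm rest on few counts. With 3 mice a group the 95% interval in lung was wider than 1 log2 unit for 7 of the 9 members.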
